A study of Homo sapiens with 6 samples.

Results

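Kruppel-like factors (KLF) were followed in RNA sequencing of T24 cells, a human bladder cancer cell line. The 10 genes KLF2, KLF3, KLF4, KLF5, KLF6, KLF7, KLF9, KLF10, KLF11 and KLF13 were chosen by symbol, and all 10 were found among the 20030 gene rows. The group labelled sh-circRIMS1, a knockdown of the circular RNA circRIMS1, had 3 libraries, and the group labelled NC had 3 libraries. By the series title circRIMS1 sponges miR-433-3p and acts through CCAR1 in bladder cancer, and the stated question is how messenger RNA levels differ between these groups. The labels give no dose, time, number of hairpins or separate cultures, and the table names the knockdown columns si where the sample titles have sh. The p-values therefore measure the spread between these libraries, which may be technical. The knockdown itself cannot be read from values per gene.

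KLF proteins are transcription factors that bind GC-rich and CACCC-type sequences through zinc fingers at their carboxy-terminal end, a part that is much alike across the family and related to that of the SP factors. Their amino-terminal parts differ and recruit either coactivators or corepressors, so that members can act on the same sites with opposite effects. In epithelia KLF4 is known for growth arrest and barrier differentiation and KLF5 for proliferation of basal and progenitor cells, while several members respond within minutes to hours to growth factors, hormones, flow or stress.

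The 6 libraries were close in depth, but 1 stood apart. Steps in low FPKM values placed the depth of the other libraries at 1.01 to 1.17 times that of NC replicate 1, and absolute depth is unknown. On the log2 scale, across the tested genes, sh-circRIMS1 replicate 2 correlated with replicates 1 and 3 at a Pearson's r of 0.974 and 0.975, while that pair correlated at 0.997, as did the NC libraries. Results are therefore given with and without sh-circRIMS1 replicate 2. Of 16 urothelial and epithelial markers 5 reached the mean FPKM of 1 needed for testing, with KRT7 at 269 to 312 FPKM in sh-circRIMS1 and 429 to 446 FPKM in NC, while the epithelial cadherin CDH1 stayed below 0.1 FPKM and UPK1B, UPK3A and KRT20 were listed at 0 in all 6 libraries.

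Of the 10 KLF genes 3 rose, 1 fell and 6 did not pass the test. KLF4, KLF9 and KLF3 were 4.69, 2.84 and 1.54 times as high in sh-circRIMS1 as in NC, and KLF5 fell to 0.600 times its NC level. All 10 members passed the filter, with group means above 1 FPKM in both groups. The test was limma on log2(FPKM + 0.5) over the 10408 genes whose mean FPKM reached 1, adjusted by Benjamini-Hochberg at 0.05. Of the tested genes 37.7% were called (25.0% higher, 12.7% lower), so that 4 called members of 10 is a share near the background. The split of calls over all genes depended on the scaling, with 2598 higher and 1322 lower as deposited and 1787 higher and 2429 lower under median-of-ratios scaling, while the members had 3 higher and 1 lower under both. The median change of the members was 0.29 on the log2 scale, beside 0.06 for all tested genes. In bulk RNA fewer cells with a transcript and less RNA per cell cannot be told apart. Without sh-circRIMS1 replicate 2 the same 4 genes kept their calls and directions, and 8 members were called, 5 higher and 3 lower, beside 60.7% called among the 10340 genes then tested (36.8% higher, 23.9% lower).

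**Figure D1:**
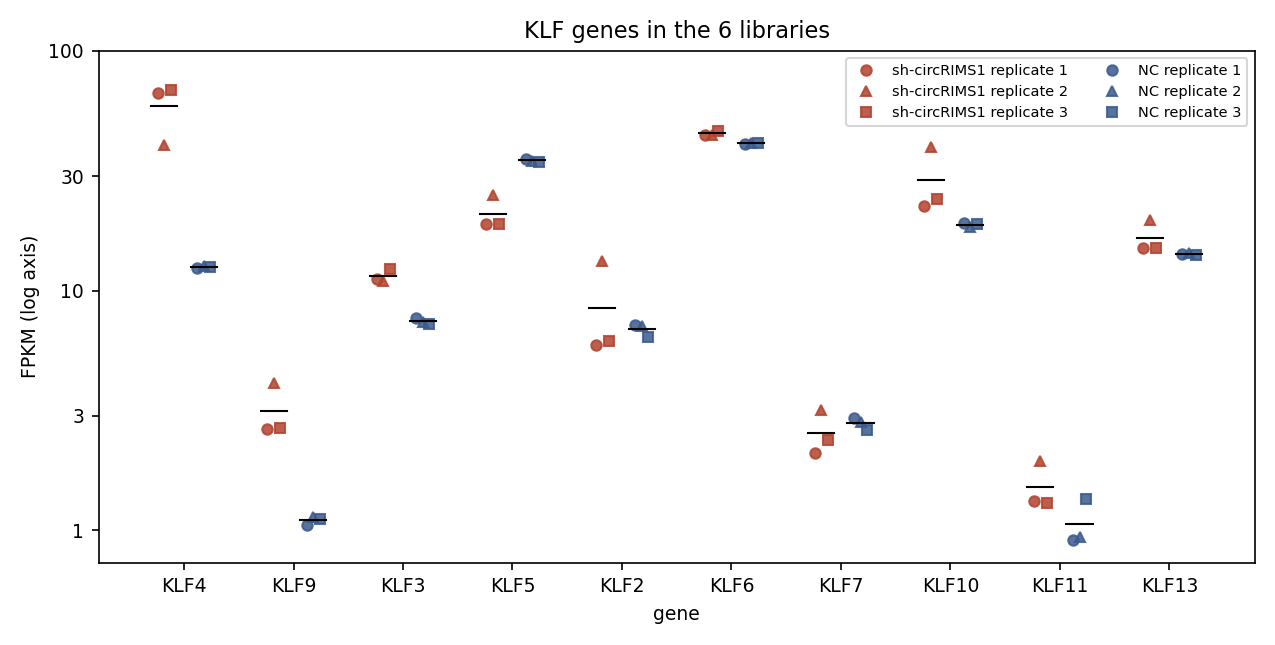
FPKM of the 10 KLF genes (log axis) in the 3 sh-circRIMS1 libraries (red) and the 3 NC libraries (blue), with symbols for the replicate and a black line at each group mean. KLF4, KLF9 and KLF3 lie above and KLF5 below NC in all sh-circRIMS1 libraries, and sh-circRIMS1 replicate 2 stands apart from replicates 1 and 3 for KLF2, KLF4, KLF9 and KLF10.

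KLF4, an activator and repressor that restrains epithelial proliferation and is also known as a reprogramming factor, had the largest change of the family. It stood at 66.9, 40.4 and 68.7 FPKM in sh-circRIMS1 replicates 1 to 3, against 12.4, 12.6 and 12.5 FPKM in NC replicates 1 to 3. The groups did not overlap, and the lowest sh-circRIMS1 library, replicate 2, still lay far above every NC library. Means were 58.7 ± 15.9 FPKM in sh-circRIMS1 and 12.5 ± 0.117 FPKM in NC (SD, n = 3 each). On the log2 scale it rose by 2.15 (standard error 0.20, 95% interval 1.68 to 2.61, limma adjusted p = 0.000474). A larger change in either direction was seen in 0.817% of tested genes. Leaving out each library in turn gave log2 changes from 2.01 to 2.39, all called, with 2.39 without sh-circRIMS1 replicate 2. The exact permutation p of KLF4, as of the other members whose groups did not overlap, was 0.1, which is the lowest value this number of libraries allows.

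KLF5, which promotes proliferation of epithelial progenitors and often acts opposite to KLF4 on shared target genes, was the only member called lower over all 6 libraries. In sh-circRIMS1 it measured 18.9, 25.0 and 18.9 FPKM and in NC 35.4, 34.8 and 34.5 FPKM. Again the groups did not overlap, and replicate 2 was the sh-circRIMS1 library nearest to NC. The means were 20.9 ± 3.52 FPKM in sh-circRIMS1 and 34.9 ± 0.443 FPKM in NC (SD, n = 3 each). KLF5 fell by 0.74 on the log2 scale (standard error 0.11, 95% interval -1.003 to -0.471, limma adjusted p = 0.00317), and by 0.87 without sh-circRIMS1 replicate 2. The ratio of KLF4 to KLF5 FPKM was 3.55, 1.61 and 3.63 in sh-circRIMS1 and 0.350, 0.363 and 0.362 in NC. KLF4 thus exceeded KLF5 in each sh-circRIMS1 library and lay below it in each NC library, a description that rests on the values above.

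KLF9, a repressor known as a target of glucocorticoid and thyroid hormone receptors, was a low gene that rose. It measured 2.64, 4.11 and 2.67 FPKM in sh-circRIMS1 and 1.05, 1.14 and 1.12 FPKM in NC. Here replicate 2 was the highest sh-circRIMS1 library, unlike for KLF4, and every sh-circRIMS1 library lay above every NC library. Means were 3.14 ± 0.838 FPKM in sh-circRIMS1 and 1.10 ± 0.0463 FPKM in NC (SD, n = 3 each). The log2 change was 1.16 (standard error 0.16, 95% interval 0.78 to 1.53, limma adjusted p = 0.00214), or 0.98 without sh-circRIMS1 replicate 2. The added 0.5 understates the change of a gene this low. With a pseudocount of 0.1 the log2 change was 1.40.

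KLF3, a repressor that recruits CtBP corepressors, was even across replicates. Its FPKM was 11.2, 11.0 and 12.3 in sh-circRIMS1 and 7.69, 7.38 and 7.27 in NC. No library of either group stood apart, and the groups did not overlap. The means of 11.5 ± 0.673 FPKM in sh-circRIMS1 and 7.45 ± 0.214 FPKM in NC (SD, n = 3 each) gave a log2 change of 0.59 (standard error 0.06, 95% interval 0.44 to 0.75, limma adjusted p = 0.000912). The log2 change of KLF3 was 0.62 without sh-circRIMS1 replicate 2.

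Because KLF4 and KLF9 rose and KLF5 fell, the 250 bases before their RefSeq start sites (GRCh38.p14) are shown, with matches to CACCC and to the GC box GGGCGG, on either strand, in capitals. The sources used here do not give the build behind the deposited FPKM, and which start the T24 cells use was not tested.
KLF4, chr9:107489770-107490019, minus strand: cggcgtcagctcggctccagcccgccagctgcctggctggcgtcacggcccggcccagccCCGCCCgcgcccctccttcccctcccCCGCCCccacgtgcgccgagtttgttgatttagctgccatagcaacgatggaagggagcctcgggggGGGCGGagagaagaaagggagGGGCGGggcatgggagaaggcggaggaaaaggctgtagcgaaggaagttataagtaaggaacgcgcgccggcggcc
KLF9, chr9:70414658-70414907, minus strand: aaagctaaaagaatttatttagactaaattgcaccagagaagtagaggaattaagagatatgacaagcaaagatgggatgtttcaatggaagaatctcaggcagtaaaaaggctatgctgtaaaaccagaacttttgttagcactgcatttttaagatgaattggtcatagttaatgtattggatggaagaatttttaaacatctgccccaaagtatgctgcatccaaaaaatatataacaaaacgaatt
KLF5, upstream start, chr13:73054726-73054975, plus strand: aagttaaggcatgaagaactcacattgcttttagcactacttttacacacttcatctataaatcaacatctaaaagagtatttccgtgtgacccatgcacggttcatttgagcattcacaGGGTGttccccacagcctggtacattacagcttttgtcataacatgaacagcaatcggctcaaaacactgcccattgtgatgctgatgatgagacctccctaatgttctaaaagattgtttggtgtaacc
KLF5, downstream start, chr13:73058755-73059004, plus strand: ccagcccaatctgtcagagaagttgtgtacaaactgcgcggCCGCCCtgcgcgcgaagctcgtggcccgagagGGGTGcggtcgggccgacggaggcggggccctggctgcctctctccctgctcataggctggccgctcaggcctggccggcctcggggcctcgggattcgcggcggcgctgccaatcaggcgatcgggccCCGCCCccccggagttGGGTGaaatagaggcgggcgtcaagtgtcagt
The KLF4 stretch held 4 GC boxes and 0 CACCC matches at 69.2% G and C, and the KLF9 stretch held 0 of both at 32.4% G and C. The upstream KLF5 start had 1 CACCC match and 0 GC boxes at 40.8% G and C, and the downstream start had 2 matches of each at 70.8%. Over all 35116 promoter windows of this length the median was 58.0% G and C, 42.6% held a GC box and 54.7% a CACCC match, so both motifs are common letters in such windows. KLF4 and KLF9, which both rose, thus differ in base composition and motif content.

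Of the 10 members 8 matched the promoter table, with 13 start sites, and KLF3 and KLF10 did not. A GC box was found in 8 and CACCC in 6 of the 13 windows. The AP-1 site TGANTCA was in 0 of 13, beside 6.57% of all windows, and TATAAA in 1 of 13, the upstream KLF5 start, beside 10.7%. Both strands were searched and overlapping matches were counted.

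KLF10 and KLF11, repressors first described as TGF-beta-inducible early genes, lay higher in sh-circRIMS1 without passing the test. KLF10 stood at 22.6, 39.8 and 24.0 FPKM in sh-circRIMS1, against 19.1, 18.4 and 19.0 FPKM in NC. The groups did not overlap, and replicate 2 was well above the other sh-circRIMS1 libraries. KLF10 changed by 0.55 on the log2 scale (standard error 0.20, 95% interval 0.07 to 1.03, limma adjusted p = 0.0707). Without sh-circRIMS1 replicate 2 it was smaller, 0.30, and called (limma adjusted p = 0.000272), and without sh-circRIMS1 replicate 1 it was 0.70 (limma adjusted p = 0.0463). KLF11 was near 1 FPKM, at 1.33, 1.94 and 1.30 FPKM in sh-circRIMS1 and 0.910, 0.936 and 1.35 FPKM in NC. These groups overlapped, since NC replicate 3 reached the sh-circRIMS1 values (log2 change 0.37, standard error 0.17, limma adjusted p = 0.128). After quantile normalization the log2 change of KLF11 was -0.01.

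KLF13, an activator of CCL5 transcription in T lymphocytes, measured 15.1, 19.7 and 15.1 FPKM in sh-circRIMS1 and 14.2, 14.3 and 14.1 FPKM in NC. The groups did not overlap, and replicate 2 was the highest library (log2 change 0.21, standard error 0.11, limma adjusted p = 0.165). Without replicate 2 the log2 change was 0.09 and was not called (limma adjusted p = 0.0893). CCL5, which encodes a chemokine, rose in these libraries to 89.3, 53.1 and 88.2 FPKM in sh-circRIMS1, against 2.95, 2.95 and 3.71 FPKM in NC. It was lowest among sh-circRIMS1 libraries in replicate 2, where KLF13 was highest. A link between KLF13 and CCL5 was not tested.

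KLF6, an activator of the wound response that is lost or mis-spliced in several carcinomas, was the most abundant member in NC. Its FPKM was 44.7, 44.7 and 46.2 in sh-circRIMS1 and 41.0, 41.2 and 41.2 in NC. All sh-circRIMS1 libraries lay above all NC libraries, by little (log2 change 0.13, standard error 0.05, limma adjusted p = 0.0644). The call turned on the processing, with an adjusted p of 0.00390 without sh-circRIMS1 replicate 2. Under median-of-ratios scaling the log2 change was 0.01.

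KLF7, best known from the development of neurons, measured 2.11, 3.17 and 2.38 FPKM in sh-circRIMS1 and 2.94, 2.83 and 2.62 FPKM in NC. Replicate 2 lay above and replicates 1 and 3 below all NC libraries (log2 change -0.13, standard error 0.13, limma adjusted p = 0.484). Without replicate 2 the log2 change of KLF7 was -0.27 (limma adjusted p = 0.0169).

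KLF2, which keeps endothelial cells and T lymphocytes quiescent, split the sh-circRIMS1 libraries most. It measured 5.95, 13.3 and 6.16 FPKM in sh-circRIMS1 and 7.19, 7.13 and 6.43 FPKM in NC. As with KLF7, replicate 2 was above and the other sh-circRIMS1 libraries were below every NC library (log2 change 0.18, standard error 0.28, limma adjusted p = 0.635). Its direction reversed without that library, to a log2 change of -0.18 (limma adjusted p = 0.0351), so no direction can be given for KLF2.

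**Figure D2:**
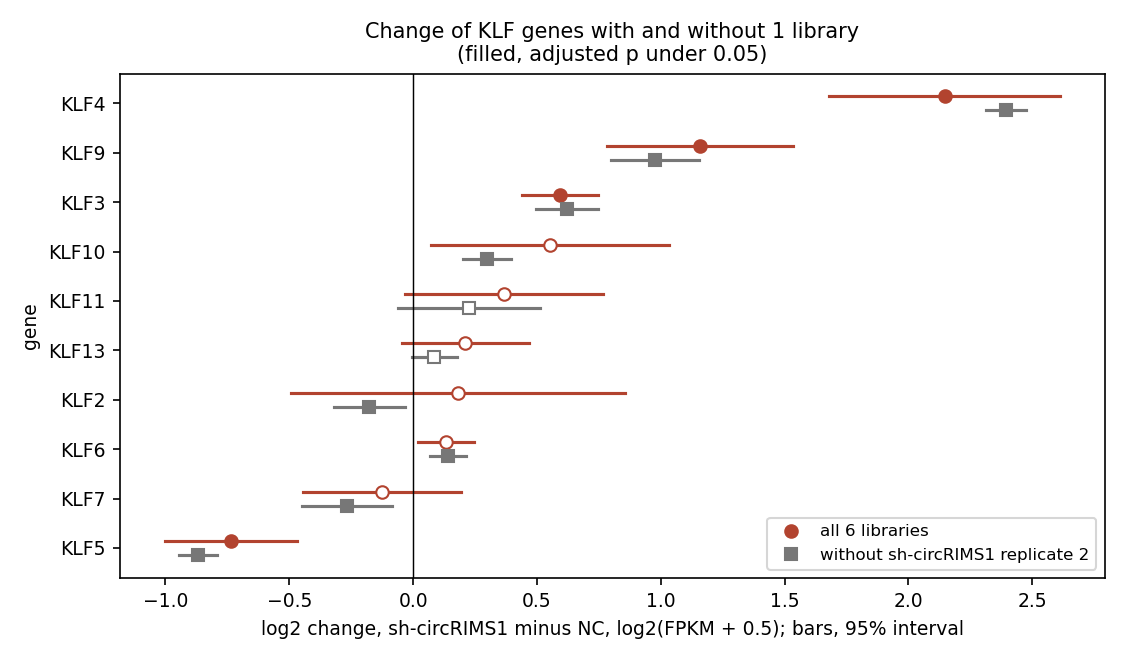
Log2 change, sh-circRIMS1 minus NC, of the 10 KLF genes with 95% intervals, from all 6 libraries (red circles) and without sh-circRIMS1 replicate 2 (grey squares), with filled symbols at an adjusted p under 0.05. KLF4, KLF9, KLF3 and KLF5 were called in both fits, and KLF2 changed sign.

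Groups that did not overlap were counted as well. In 6 members all sh-circRIMS1 libraries lay above and in 1, KLF5, all lay below the NC libraries, while KLF2, KLF7 and KLF11 overlapped. Of the tested genes 57.5% did not overlap, with 35.5% higher and 22.0% lower.

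Within the sh-circRIMS1 group replicate 2 lay above replicates 1 and 3 for 7 of the 10 members and below both for 2, KLF3 and KLF4. Over all tested genes the shares were 45.7% above and 43.5% below. The median difference on the log2 scale between replicate 2 and the mean of replicates 1 and 3 was 0.41 for the members and 0.01 for all tested genes. KLF2 was 2.20 times, KLF10 1.71 times and KLF9 1.55 times as high in replicate 2 as in the mean of replicates 1 and 3, whereas KLF4 was 0.595 times as high. On the log2 scale these differences were 1.08 for KLF2, 0.76 for KLF10, 0.55 for KLF9 and -0.74 for KLF4, and 7.90% of tested genes exceeded 0.5. KLF3 and KLF6 differed by -0.09 and -0.02. JUN, which encodes an AP-1 subunit, was at 79.9 FPKM in replicate 2 and at 33.5 and 30.8 FPKM in replicates 1 and 3, against 44.5, 43.3 and 44.3 FPKM in NC. The glucocorticoid-induced gene TSC22D3 was at 12.2 FPKM in replicate 2 and at 3.38 and 3.31 FPKM in replicates 1 and 3, against 6.69, 6.94 and 7.12 FPKM in NC. JUN and TSC22D3 were picked after their values were seen, and their part in the KLF values was not tested.

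**Figure D3:**
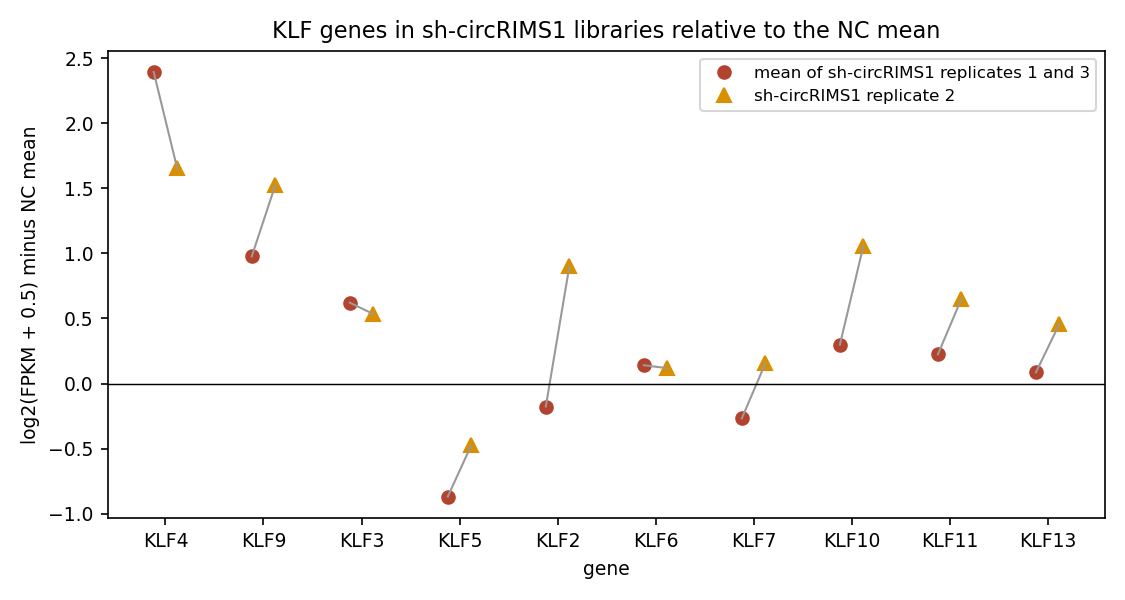
Log2(FPKM + 0.5) minus the NC mean of the 10 KLF genes, for the mean of sh-circRIMS1 replicates 1 and 3 (red circles) and for replicate 2 (orange triangles), joined by a line for each gene. KLF2 and KLF7 lie on opposite sides of the NC mean, and KLF4 is the only gene with a marked drop in replicate 2.

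FPKM are values per transcript length, so levels can be ranked between genes. In NC the order by mean FPKM was KLF6, KLF5, KLF10, KLF13, KLF4, KLF3, KLF2, KLF7, KLF9 and KLF11, and KLF9 and KLF11 were the only neighbours whose libraries overlapped. In sh-circRIMS1 KLF4 came first by mean, followed by KLF6, KLF10, KLF5, KLF13, KLF3, KLF2, KLF9, KLF7 and KLF11. There the libraries of KLF4 and KLF6, KLF10 and KLF5, KLF5 and KLF13, KLF3 and KLF2, and KLF9 and KLF7 overlapped, so these neighbours are not separated. KLF4 lay below KLF6 in replicate 2, at 40.4 and 44.7 FPKM.

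The summed FPKM of the 10 genes was 191, 203 and 198 in sh-circRIMS1 and 142, 141 and 140 in NC. KLF4 made up 35.0%, 19.9% and 34.8% of that sum in sh-circRIMS1, against 8.73%, 8.97% and 8.91% in NC. For KLF5 the shares were 9.86%, 12.3% and 9.57% in sh-circRIMS1 and 24.9%, 24.7% and 24.6% in NC. The share of KLF10 was 19.6% in sh-circRIMS1 replicate 2 and 11.8% and 12.1% in replicates 1 and 3, against 13.0% to 13.6% in NC.

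**Figure D4:**
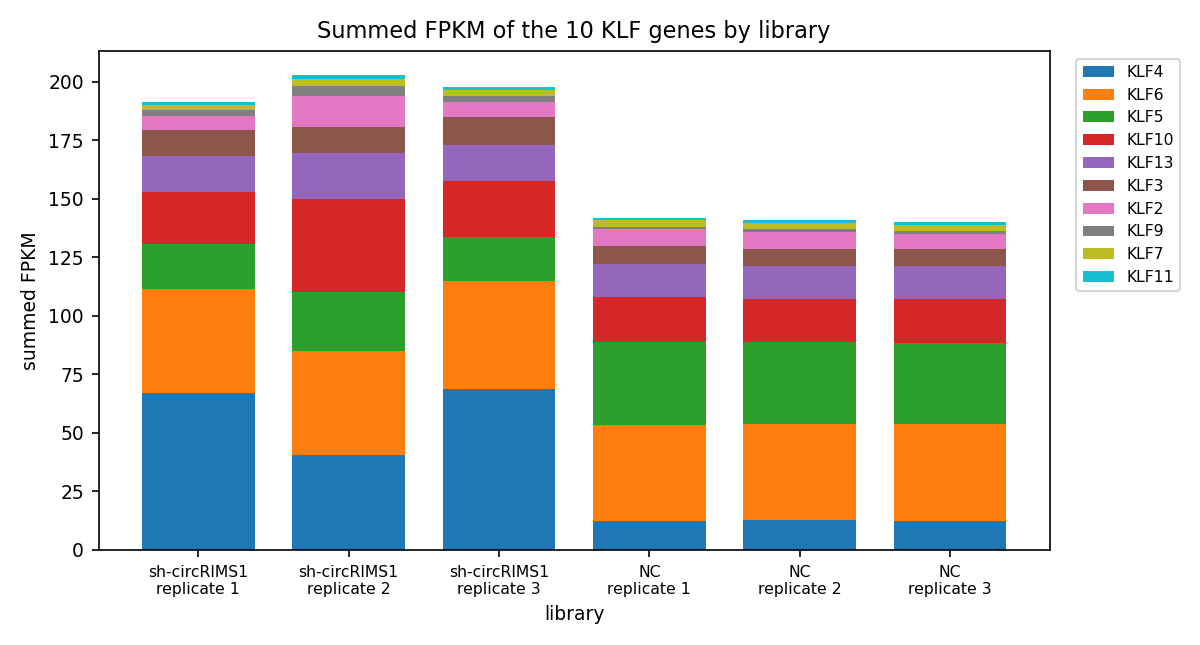
Summed FPKM of the 10 KLF genes in each library, stacked by gene, with the 3 sh-circRIMS1 libraries on the left and the 3 NC libraries on the right. The sh-circRIMS1 sums of 191 to 203 lie above the NC sums of 140 to 142, with a wider KLF4 and a narrower KLF5 band.

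Other genes of the family were low or changed little. Of 8 further KLF genes only KLF12 and KLF16 reached the filter. KLF12, a repressor that like KLF3 binds CtBP, measured 1.63, 1.73 and 1.54 FPKM in sh-circRIMS1 and 2.17, 2.12 and 2.04 FPKM in NC, and fell by 0.29 on the log2 scale (limma adjusted p = 0.0279). That call was lost without any 1 of the NC libraries or of sh-circRIMS1 replicates 1 and 3. KLF16 stood at 23.2, 31.5 and 25.0 FPKM in sh-circRIMS1 and 23.0, 22.9 and 22.3 FPKM in NC (limma adjusted p = 0.182), with replicate 2 again highest. KLF1 and KLF18 were listed at 0 in all libraries, and KLF8, KLF14, KLF15 and KLF17 stayed below 0.3 FPKM. Among the 9 SP genes SP1, SP2 and SP3 were tested and none was called (limma adjusted p = 0.531, 0.0674 and 0.292), with SP1 at 19.1 to 21.2 FPKM in sh-circRIMS1 and 20.3 to 21.0 FPKM in NC. Of all tested genes 37.7% were called. At an unadjusted p under 0.05, 1 of these SP genes, SP2, passed. Without sh-circRIMS1 replicate 2, SP2 and SP3 were called lower, beside 23.9% of all genes then tested. Both were also called lower under median-of-ratios scaling and with array weights, and SP2 under quantile normalization. SP genes below the filter went the other way. SP5, at a mean of 1.41 FPKM in sh-circRIMS1 and 0.499 FPKM in NC, was called higher under TPM rescaling and without any 1 NC library. Without 1 NC library it reached the filter only through sh-circRIMS1, where it was high, and 1630 to 1650 genes in all were called higher. SP4 was also called higher under TPM rescaling, beside 3227 of 11746 tested genes. SP4, SP5 and SP6 were called higher without the filter, beside 3375 of 16217 tested genes.

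The cofactors that KLF proteins recruit were lower or not called. Of 14 tested 4 fell and 0 rose, with a median log2 change of -0.05, beside 12.7% of all tested genes lower. KAT2B, an acetyltransferase, measured 2.48, 2.58 and 2.81 FPKM in sh-circRIMS1 and 3.43, 3.60 and 3.96 FPKM in NC (log2 change -0.41, limma adjusted p = 0.00861). CTBP2, a corepressor, measured 6.82, 7.70 and 7.39 FPKM in sh-circRIMS1 and 9.01, 8.95 and 9.03 FPKM in NC (log2 change -0.29, limma adjusted p = 0.0134). HDAC1, a histone deacetylase, measured 69.7, 46.6 and 70.1 FPKM in sh-circRIMS1 and 92.4, 91.7 and 96.2 FPKM in NC (log2 change -0.61, limma adjusted p = 0.0226). The calls of CTBP2 and HDAC1 were lost without any 1 NC library, and 1 cofactor was then called, lower, in each case. Over all genes 685, 690 and 693 were called lower without NC replicate 1, 2 and 3, beside 1322 with all 6 libraries. With sh-circRIMS1 replicate 2 left out the cofactors had 2 higher and 6 lower, beside 60.7% of genes then called, and the log2 change of HDAC1 was -0.42.

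Of 8 tested ubiquitin ligases and deubiquitinases that act on KLF proteins 2 rose, WWP1 and SMURF1, and 1 fell, SMURF2, with a median log2 change of 0.15. These 3 calls are a share near the 37.7% called among all tested genes. WWP1, a ligase for KLF2 and KLF5, measured 6.40, 7.64 and 6.92 FPKM in sh-circRIMS1 and 5.52, 5.34 and 4.89 FPKM in NC (limma adjusted p = 0.0132), a call lost without NC replicate 3. SMURF1 changed by 0.50 and SMURF2 by -0.22 on the log2 scale, and both calls were lost without any 1 NC library or without sh-circRIMS1 replicate 3, and that of SMURF2 also without sh-circRIMS1 replicate 1. This list had 4 higher and 1 lower without sh-circRIMS1 replicate 2, when 60.7% of all tested genes were called. It had 0 called without NC replicate 3, when 2323 of 10464 tested genes were called.

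The kinase cascade from MEKK3 through ERK5 to MEF2 factors, which induces KLF2 and KLF4 in endothelium and is restrained by the CCM proteins, was mostly not called. Of 13 tested genes 2 were higher and 1 lower, with a median log2 change of 0.03, beside 37.7% called among all tested genes. CCM2 averaged 4.36 FPKM in sh-circRIMS1 and 3.25 FPKM in NC (limma adjusted p = 0.0111), a call lost without NC replicate 2. PDCD10 changed by 0.21 and KRIT1 by -0.33 on the log2 scale (limma adjusted p = 0.0467 and 0.0454), calls lost without any 1 library other than sh-circRIMS1 replicate 2. MAPK7, which encodes ERK5 and was named after its values were seen, was not called (limma adjusted p = 0.153). The list had 2 higher and 4 lower without sh-circRIMS1 replicate 2, beside 60.7% of all tested genes, and its median was -0.11. Without any other 1 library the list had at most 1 called member, while the calls over all genes were 2320 to 3341, beside 3920 with all 6 libraries.

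Of 8 tested genes of the glucocorticoid response, of which KLF9 is a known part, 2 rose and 1 fell, with a median log2 change of -0.10. This share is near the 37.7% called among all tested genes. NR3C1, the glucocorticoid receptor, measured 9.85, 9.95 and 10.5 FPKM in sh-circRIMS1 and 7.43, 7.65 and 7.14 FPKM in NC (log2 change 0.42, limma adjusted p = 0.00236). Its chaperone partner FKBP5 measured 2.93, 2.52 and 2.95 FPKM in sh-circRIMS1 and 1.95, 1.99 and 1.69 FPKM in NC (limma adjusted p = 0.00902), a call lost under quantile normalization. The kinase SGK1 measured 14.7, 15.5 and 15.2 FPKM in sh-circRIMS1 and 26.8, 26.1 and 25.8 FPKM in NC (log2 change -0.78, limma adjusted p = 0.000178). SGK1 thus fell while NR3C1, FKBP5 and KLF9 rose. Without sh-circRIMS1 replicate 2 the list had 2 higher and 4 lower, beside 60.7% of all tested genes called, with a median of -0.26.

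Of 12 genes of TGF-beta signalling and its early response, the setting in which KLF10 and KLF11 were named, 5 rose and 0 fell, with a median log2 change of 0.27, beside 25.0% higher and 12.7% lower among all tested genes. TGIF1, a SMAD corepressor, and PMEPA1, a feedback inhibitor, rose by 0.60 and 0.92 on the log2 scale (limma adjusted p = 0.00126 and 0.00217). SMAD7, an inhibitory SMAD named after its values were seen, was not called (limma adjusted p = 0.342). Without sh-circRIMS1 replicate 2 there were 7 higher and 1 lower, beside 36.8% higher and 23.9% lower among the genes then tested.

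KLF2, KLF4, KLF6 and KLF10 are often counted among immediate early genes, which cells transcribe soon after stimulation. Of 13 other tested genes of that class 8 rose and 0 fell, beside 25.0% of all tested genes higher, with a median log2 change of 0.37. NR4A1 and BTG2 reached the filter only through sh-circRIMS1, where they were high, and of the 11 genes with both group means at 1 FPKM or more 6 rose. JUNB measured 75.6, 94.0 and 77.3 FPKM in sh-circRIMS1 and 29.2, 30.2 and 28.2 FPKM in NC, a log2 change of 1.47 (limma adjusted p = 0.000145). IER2 rose by 0.54 (limma adjusted p = 0.00105), and the nuclear receptor gene NR4A1 averaged 1.79 FPKM in sh-circRIMS1 and 0.733 FPKM in NC (log2 change 0.89, limma adjusted p = 0.000984). In contrast to the KLF members, whose median in sh-circRIMS1 replicate 2 lay 0.41 above replicates 1 and 3, the median of these genes differed by -0.02, a difference between the lists that was not tested. Without replicate 2 the list had 8 higher and 2 lower, beside 36.8% higher and 23.9% lower among all genes then tested. Without NC replicate 1 or 2 it had 3 and 5 higher. The calls over all genes also fell then, to 1635 higher of 10461 tested and 1650 higher of 10457 tested.

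Of 16 tested genes reported elsewhere as direct KLF targets 4 rose and 2 fell, with a median log2 change of 0.26. The share is near that of all tested genes, of which 25.0% were higher and 12.7% lower. CDKN1A, the cell cycle inhibitor induced by KLF4 and KLF6, measured 87.1, 79.6 and 80.1 FPKM in sh-circRIMS1 and 38.1, 39.7 and 39.0 FPKM in NC (log2 change 1.07, limma adjusted p = 8.88e-05). PLAU, the urokinase gene and a KLF6 target, measured 195, 182 and 193 FPKM in sh-circRIMS1 and 111, 108 and 108 FPKM in NC (log2 change 0.80, limma adjusted p = 0.000145). The KLF5 target BIRC5, which encodes survivin, and EDN1, the endothelin gene that KLF2 lowers in endothelium, fell by 0.83 and 0.57 on the log2 scale (limma adjusted p = 0.000816 and 0.00425). CCND1, a cyclin gene that KLF5 raises and KLF4 lowers, measured 130, 175 and 129 FPKM in sh-circRIMS1 and 159, 161 and 158 FPKM in NC and was not called (limma adjusted p = 0.341), with replicate 2 on the other side of NC from replicates 1 and 3. THBD, the thrombomodulin gene induced by KLF2, was highest in the library where KLF2 was highest, at 26.9 FPKM in sh-circRIMS1 replicate 2 and at 13.7 and 14.8 FPKM in replicates 1 and 3, against 12.2 to 12.5 FPKM in NC (limma adjusted p = 0.137). S1PR1, another gene of this list, was lowest among sh-circRIMS1 libraries in replicate 2. It measured 1.61, 0.981 and 2.20 FPKM in sh-circRIMS1 and 0.827, 1.12 and 1.05 FPKM in NC. Of the 16 tested genes, replicate 2 lay above replicates 1 and 3 in 7 and below both in 9. BIRC5, EDN1, CCND1, THBD and S1PR1 were named after their values were seen. Any link of the KLF values to these genes was not tested. Without replicate 2 the list had 8 higher and 5 lower, beside 36.8% and 23.9% of all tested genes.

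Profiles over the 6 libraries were compared by the root mean square difference of log2 values after each gene's own mean was subtracted, which uses the shape and not the level. The tested genes nearest to KLF4 were LY6E, which encodes a membrane-anchored surface protein, UBE2L6, the conjugating enzyme for ISG15, and PARP14, an ADP-ribosyltransferase, with differences of 0.03, 0.03 and 0.04. LY6E averaged 784 ± 222 FPKM in sh-circRIMS1 and 169 ± 3.19 FPKM in NC, and UBE2L6 93.5 ± 23.8 FPKM in sh-circRIMS1 and 19.7 ± 0.249 FPKM in NC (SD, n = 3 each). PARP14 averaged 29.9 ± 7.01 FPKM in sh-circRIMS1 and 6.36 ± 0.138 FPKM in NC (SD, n = 3 each). All 3 shared with KLF4 a smaller rise in replicate 2. Nearest to KLF9 were POU2F2, a transcription factor of lymphocytes, MRC2, a collagen receptor, and SHANK1, a postsynaptic scaffold gene, with differences of 0.03, 0.04 and 0.05 and the highest values in replicate 2. KLF5 was nearest to RFLNB, FAM129A and ANXA3, at 0.03, 0.03 and 0.05, and KLF3 to C1orf21, RPH3AL and BEX3, at 0.03 for each. All these genes were chosen by profile over the 6 libraries, so their likeness to the KLF genes in replicate 2 follows from the choice. Such likeness over 6 libraries from 2 groups describes these libraries only.

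**Figure D5:**
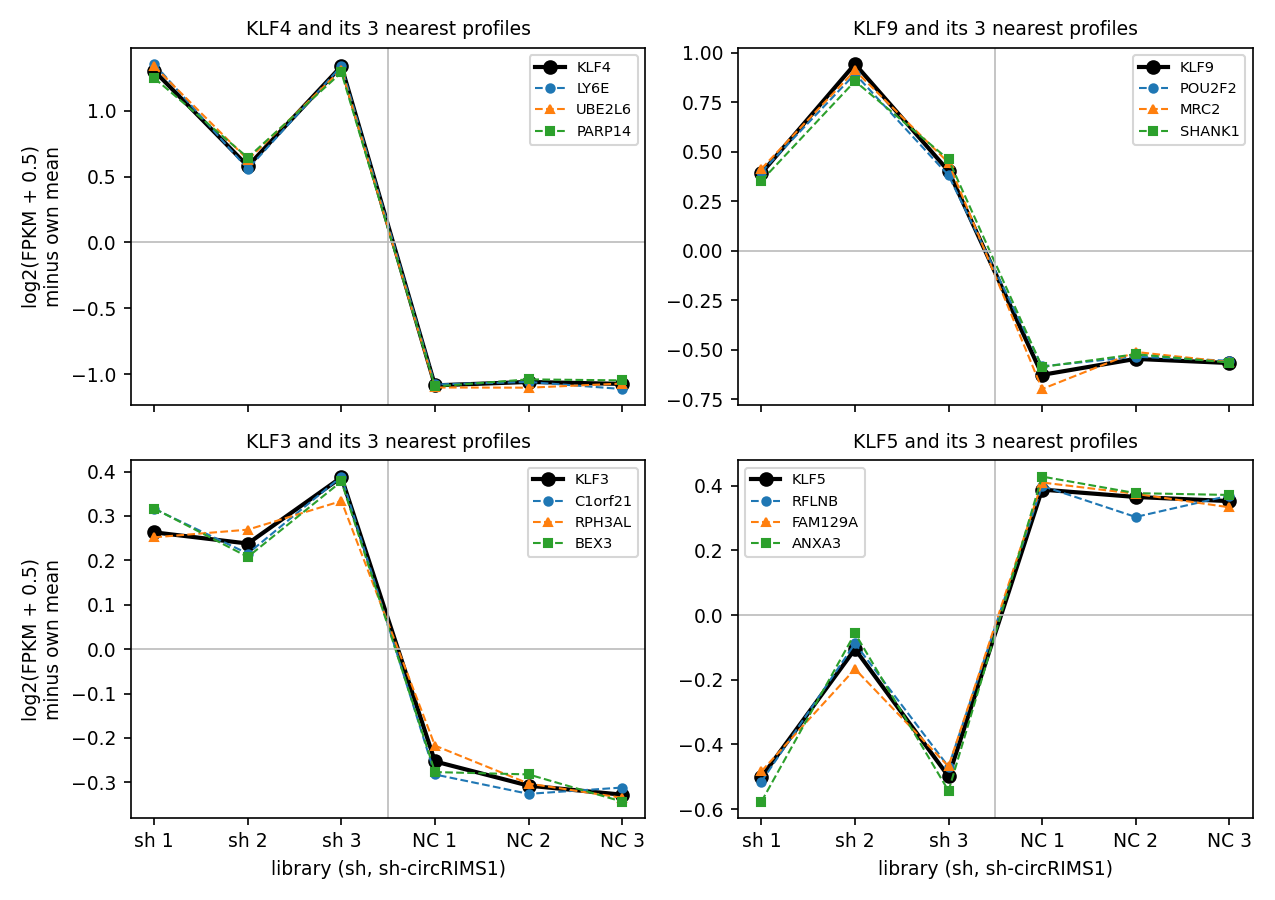
Log2(FPKM + 0.5) minus each gene's own mean over the 6 libraries, with sh-circRIMS1 libraries on the left and NC libraries on the right, for KLF4, KLF9, KLF3 and KLF5 (black) and the 3 tested genes nearest to each (coloured). KLF4 and its neighbours dip in sh-circRIMS1 replicate 2, whereas KLF9 and its neighbours peak there. The neighbours were chosen by these profiles.

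Since KLF2 and KLF4 are known from endothelium, markers of other cell types were read beside them. Of 12 endothelial markers 5 were tested and 4 were called higher, beside 25.0% higher and 12.7% lower among all tested genes. The summed FPKM of all 12 was 65.2 to 81.5 in sh-circRIMS1 and 49.2 to 51.5 in NC. TIE1 and ESAM reached the filter only through sh-circRIMS1, where they were high, which leaves 2 of 3, EGFL7 and ROBO4. The receptor gene TIE1 measured 1.87, 4.18 and 2.06 FPKM in sh-circRIMS1 and 0.112, 0.166 and 0.122 FPKM in NC, and it fell short of the filter without sh-circRIMS1 replicate 2. ESAM measured 2.38, 3.41 and 1.71 FPKM in sh-circRIMS1 and 0.692, 0.800 and 0.878 FPKM in NC, and EGFL7 rose by 0.50 on the log2 scale (limma adjusted p = 0.00131). CDH5, the endothelial cadherin gene, measured 12.6, 16.0 and 12.4 FPKM in sh-circRIMS1 and 15.3, 16.1 and 14.6 FPKM in NC (log2 change -0.17, limma adjusted p = 0.234), and was called lower without sh-circRIMS1 replicate 2 (log2 change -0.28, limma adjusted p = 0.000902). ROBO4 and CDH5 were named after their values were seen. The defining markers TEK and CLDN5 were listed at 0 in all libraries, KDR was above 0 only in sh-circRIMS1 replicate 2, at 0.0132 FPKM, and VWF stayed below 0.3 FPKM. Of 12 leukocyte markers 5 were listed at 0 everywhere and 1 was tested, CD68, which rose by 1.87 on the log2 scale (limma adjusted p = 0.00034). The sum of the leukocyte markers was 17.1 to 23.7 FPKM in sh-circRIMS1 and 5.30 to 6.25 FPKM in NC. Most of that sum was CD68 alone, at 16.1, 23.0 and 15.6 FPKM in sh-circRIMS1 and 4.17, 5.02 and 4.53 FPKM in NC. Of 10 fibroblast markers FBLN1 alone was tested and was not called (limma adjusted p = 0.390). The fibroblast sum was 42.0 to 44.4 FPKM in sh-circRIMS1 and 43.7 to 44.4 FPKM in NC. Most of it was FBLN1, at 41.0 to 43.6 FPKM in sh-circRIMS1 and 43.5 to 44.2 FPKM in NC. COL1A1, below the filter and named after its values were seen, averaged 0.723 FPKM in sh-circRIMS1 and 0.132 FPKM in NC. The urothelial and epithelial markers had 3 of 5 tested members lower, beside 12.7% of all tested genes. Their sum was 706 to 958 FPKM in sh-circRIMS1 and 1244 to 1288 FPKM in NC. Most of that sum was KRT7, KRT8 and KRT18, with NC means of 436, 310 and 516 FPKM. Without the filter 1 of 13 tested markers was called higher and 3 lower, beside 3375 higher and 1266 lower of 16217 genes. EPCAM, below the filter and named after its values were seen, averaged 0.732 FPKM in sh-circRIMS1 and 0.366 FPKM in NC. The part of these marker changes in the KLF values was not tested.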

How the data were processed

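RNA sequencing of 6 T24 libraries, 3 per group, was analysed from 1 table of FPKM per gene that the authors deposited. Per the labels' protocols, total RNA was depleted of ribosomal RNA, RNase R was used against linear RNA, and library synthesis kept the strand. Values per gene do not separate linear from circular reads, and the effect of RNase R on the KLF values was not tested. The submitters' processing notes name StringTie, DESeq, HTSeq, Cufflinks, HISAT2 and Trimmomatic. Their roles and settings, and the genome build, are not stated there or in the labels. FPKM are already divided by depth and length, so no count model was used. Members were matched by symbol, and their GeneIDs gave the same symbols in RefSeq. Genes whose mean FPKM reached 1 were fitted on log2(FPKM + 0.5) with limma 3.58.1 (R 4.3.3, intensity trend, a single group term). Tests were two-sided and adjusted by Benjamini-Hochberg at 0.05. The procedure was tested on simulated data. Changes are sh-circRIMS1 minus NC.

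The members and gene lists were chosen with earlier results of these data known. The text names all 10 members, the tested KLF and SP genes, up to 3 called members with the smallest p of each other list, or the 2 most abundant where none passed, and the 3 nearest profiles of each called member. 1 gene the rule picks is not reported here. Others were named after their values were seen. Alternatives changed the pseudocount (0.1 and 1), the filter (none, or mean FPKM 5 or more), the scaling (median of ratios, quantile, TPM), array weights, a replicate block and each library left out. Relative depth came from ratios of FPKM below 0.3 that agreed within 1%. Promoter sequences are from RefSeq (GRCh38.p14).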

Additional observations from a re-analysis of the deposited data

How the results depend on the processing

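KLF3, KLF4, KLF5 and KLF9 kept their direction and call under every alternative that tested them. Their log2 changes ran from 0.47 to 0.64 for KLF3, 2.01 to 2.39 for KLF4, -0.87 to -0.67 for KLF5 and 0.85 to 1.40 for KLF9, the last not tested when the filter was raised to a mean FPKM of 5, which left 7 members with 3 called. KLF11 and KLF13 were called under none. KLF2 reversed to -0.15 with array weights and to -0.18 without sh-circRIMS1 replicate 2, and KLF11 to -0.0100 under quantile normalization. The cause was not tested. KLF2 ran from -0.18 to 0.37 when 1 library was left out. Leaving out 1 library gave 4 to 8 called members, 2320 to 6277 called genes in all and 27 to 66 called genes of the context lists, beside 4, 3920 and 41. The highest counts of all 3 came without sh-circRIMS1 replicate 2, and without NC replicate 1, 2 or 3 the calls over all genes were 2320, 2340 and 2323. Array weights gave 7, 6407 and 66. With the filter raised to 5 there were 2592 calls among 7004 genes tested. Of the single list counts, 52 moved by over 1.5 times, or to or from 0, and 143 did not.

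Median-of-ratios and quantile scaling moved the median log2 change of all tested genes by -0.12 each, and the calls to 1787 higher and 2429 lower and to 1588 higher and 2085 lower, from 2598 higher and 1322 lower. Relative to that median, KLF6 changed by 0.07 as deposited, 0.06 under median-of-ratios scaling, 0.18 under quantile normalization and 0.04 under TPM rescaling.

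Replicate numbers in the labels gave deviations that correlated at -0.03, -0.00 and -0.04 between same-numbered libraries. With 3 libraries per group and sh-circRIMS1 replicate 2 standing apart, these values cannot show whether same-numbered libraries were paired. A fit with a replicate block called 4 KLF members, 3138 genes in all and 36 genes of the context lists. Depth is unknown in reads, which limits what can be said of members near 1 FPKM.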
